A study of Mus musculus with 12 samples.

Results

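Cluster 21, labelled cortical hem radial glia, held 627 of the 50550 nuclei profiled by single nucleus RNA sequencing (snRNAseq) in the embryonic mouse cortex. Its members were all nuclei that the authors had assigned to the cluster, 454 from 5 saline embryos and 173 from 6 EtOH embryos. C57BL/6J dams, 2 for each treatment, received daily intraperitoneal injections of saline or of 2.5 g/kg ethanol (EtOH) in saline for 6 days, and the embryos are labelled embryonic day 14. Embryos S1-1 and S1-2 came from dam S1, S2-1, S2-2 and S2-4 from dam S2, E1-1 and E1-2 from dam E1, and E2-1 to E2-4 from dam E2. Dams S1 and E1 formed batch 1 of library preparation, and dams S2 and E2 formed batch 2. Littermates are not independent of their dam, and the p-values given here take each embryo as 1 sample. Embryo E2-1 had 3 nuclei in the cluster and was left out of gene levels, which leaves 5 embryos for each treatment. The other embryos had between 24 and 206 nuclei.

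The cortical hem is a signaling center at the medial edge of the developing cortex. It secretes Wnt and BMP ligands that pattern the neighboring hippocampal field, it gives rise to Cajal-Retzius neurons, and it borders the epithelium that becomes the choroid plexus of the lateral ventricle. R-spondins are secreted proteins that strengthen Wnt signaling by removing the ligases Znrf3 and Rnf43, which otherwise take Wnt receptors from the cell surface.

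Saline embryo S2-2 alone gave 206 of the nuclei, 4.64% of its nuclei, and the percentage in the other 10 embryos lay between 0.0789% and 1.55%. The saline mean was 1.69% ± 1.66 (SD, n = 5) and the EtOH mean 0.964% ± 0.577 (SD, n = 6), a difference of -0.723 percentage points (exact permutation test, two-sided, p = 0.426). The direction differed between batches, with means of 0.898% in saline and 1.4998% in EtOH in batch 1 and of 2.21% and 0.696% in batch 2. Without S2-2 the difference was 0.0158 percentage points. Within the cluster, 3 cell barcodes occurred in 2 or more embryos. Median UMIs (unique molecular identifiers, 1 per captured RNA molecule) per nucleus were 9247, 10983, 8612, 8362 and 6814 in saline embryos S1-1, S1-2, S2-1, S2-2 and S2-4, and 3970, 6141, 7345, 7054 and 7096 in EtOH embryos E1-1, E1-2, E2-2, E2-3 and E2-4. The difference of the means, EtOH minus saline, was -2482 UMIs (exact permutation test, two-sided, p = 0.0317, p = 0.0667 when exchanged only within batches), and p was 0.0635 without S1-2. In these embryos the median over the nuclei of every cluster lay between 6325 and 9051 in saline and between 4072 and 6764 in EtOH. In batch 1 both EtOH embryos were below both saline embryos, so that treatment and depth cannot be told apart there, and in batch 2 the groups overlapped. Levels below are counts per 1000000 UMIs (CPM) of the summed nuclei of an embryo, which sets the total of each embryo equal.

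All 4 marker genes of the label were highest in Cluster 21 among the 25 clusters. Lmx1a, a LIM homeodomain factor of the roof plate and hem, was at 1052 CPM ± 206 (SD, n = 10 embryos) against 79.5 CPM in Cluster 14 (reelin-rich neurons), which came next. Rspo2 was at 4059 CPM ± 729 (n = 10) and Wnt8b, a Wnt ligand, at 316 CPM ± 55.3 (n = 10). Gmnc, which encodes the geminin-like factor GEMC1 that starts the multiciliated cell program, was at 334 CPM ± 337 (n = 10), close to its 295 CPM in Cluster 14. Thinned to 2000 UMIs per nucleus, 90.6% of nuclei had a UMI of Rspo2, 75.6% of Lmx1a, 44.2% of Wnt8b and 19.5% of Gmnc (unthinned, 96.7%, 95.9%, 69.4% and 26.5%). In Cluster 2, another radial glia cluster, these shares, to which RNA released from other cells can add, were 1.71%, 0.807%, 4.06% and 0.392% at a median depth of 7487 UMIs, near the 7702 UMIs of Cluster 21.

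Other hem ligands were also high in the cluster. A list of 10 Wnt and R-spondin genes known from the hem included the Wnt secretion factor Wls and the label markers Rspo2 and Wnt8b. Of these 10 genes, 8 had their highest level in Cluster 21, Rspo2 and Wnt8b among them. The list summed to 7717 CPM ± 1243 (n = 10), against 1082 CPM in Cluster 14 and 164 CPM in Cluster 2. Rspo2 was its largest member, so the sum in part restates the label markers. Rspo3 was at 1896 CPM ± 331, Wls at 596 CPM ± 177, Rspo1 at 335 CPM ± 70.5 and the Wnt ligand gene Wnt3a at 183 CPM ± 55.6. The exceptions were Wnt5a, higher in Cluster 23, and Wnt7b, higher in 4 clusters. Among 11 BMP ligands and factors that BMP induces, 9 were highest in Cluster 21, led by Bmp6 at 241 CPM ± 67.5, Bmp7 at 74.7 CPM ± 24.5 and Msx1, a homeobox factor, at 32.6 CPM ± 12.3. Gdf7, another BMP ligand of the roof plate, had a level of only 0.716 CPM. These and the following rankings describe a cluster that was drawn from the same counts, and no test applies to them.

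Receivers of the signals were less particular. The Wnt receptors and their modulators together stood at 1905 CPM ± 253, the highest of the 25 clusters but close to the 1592 CPM of Cluster 2. The ligase genes Znrf3 and Rnf43 were at 562 CPM ± 78.6 and 58.4 CPM ± 18.5, while Lgr5, a receptor for R-spondins, was at 5.32 CPM ± 5.41. Ror1, a Wnt receptor kinase, was at 408 CPM ± 182 with Cluster 20 following at 46.4 CPM. Of 15 genes for beta-catenin, its destruction complex, TCF factors, corepressors and feedback targets of Wnt signaling (intracellular Wnt genes), the feedback inhibitor Axin2 was at 232 CPM ± 60.7 with Cluster 20 following at 54.3 CPM, and the corepressor Tle1 was at 936 CPM ± 159. The BMP receptors and mediators summed to 1564 CPM ± 104, which was rank 10 of the clusters.

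Cortical identity genes lay in the middle of the range of all 25 clusters, but the list was lowest among the radial glia clusters. Lhx2, the selector that keeps cortex from becoming hem, was at 40.0 CPM ± 26.4, rank 16 of the 25 clusters, and the list of cortical factors as a whole was at 382 CPM ± 68.8, rank 13. In the other radial glia clusters the list was at 1156 CPM (Cluster 2), 1135 CPM (Cluster 12), 584 CPM (Cluster 3) and 434 CPM (Cluster 20). Midline factors summed to 2754 CPM ± 376, above the 1882 CPM of Cluster 20, with 6 of the 14 genes highest in Cluster 21. The label marker Lmx1a is in this list, and without it the sum of Cluster 21 lay below that of Cluster 20. General radial glia genes summed to 2717 CPM ± 319 against 6489 CPM in Cluster 2, so the cluster carried the radial glia list at a lower level than that cluster did. Within this list, Gli3, the repressor of hedgehog signaling, was at 737 CPM ± 118, and Notch2 at 541 CPM ± 59.5 was highest in Cluster 21.

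**Figure D1:**
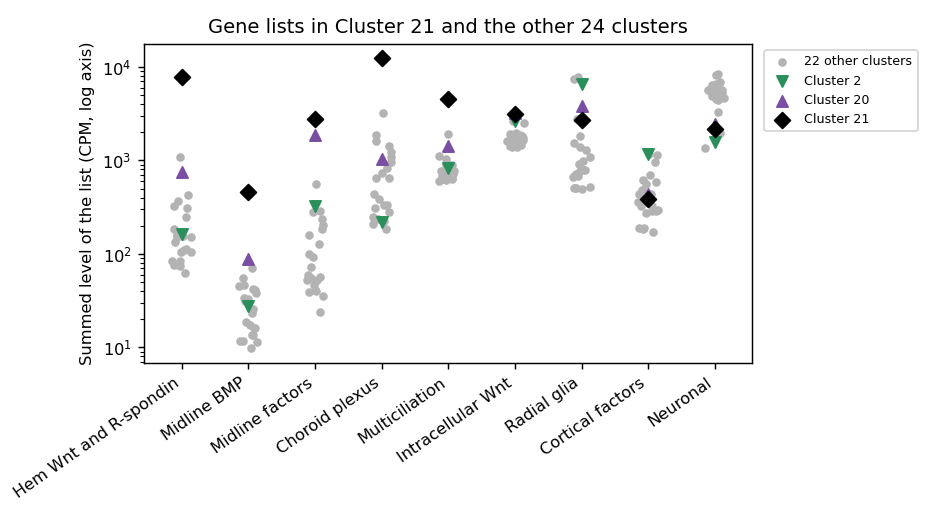
Summed level of 9 gene lists (CPM, log axis) in each of the 25 clusters, as the mean over embryos with at least 10 nuclei. Black diamonds mark Cluster 21, which lies above every other cluster for the hem Wnt and R-spondin, midline BMP, midline factor, choroid plexus and multiciliation lists, and among the others for the remaining lists.

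The cluster also held genes of the choroid plexus and of multiciliated cells, which the label does not name. The choroid plexus list of 24 genes summed to 12312 CPM ± 4925 (n = 10), against 3175 CPM in Cluster 25 and 220 CPM in Cluster 2, and 20 of its genes were highest in Cluster 21. Ttr, the thyroxine carrier that the choroid plexus secretes, was at 734 CPM ± 373 against 15.3 CPM in Cluster 12. Htr2c, a serotonin receptor of choroid epithelium, was at 2127 CPM ± 1830, and the cation channel gene Trpm3 at 6537 CPM ± 2376. Genes of mature choroid function such as Aqp1, a water channel, and Kl were at 4.85 CPM ± 4.47 and 1.77 CPM ± 4.22. The multiciliation list of 26 genes summed to 4483 CPM ± 1498, with 19 genes highest in Cluster 21. Rfx3, a transcription factor of cilia genes, was at 1286 CPM ± 209, the ciliary gene Lrriq1 at 463 CPM ± 253 and the axonemal dynein gene Dnah6 at 129 CPM ± 84.2 against 3.5 CPM in Cluster 25.

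The 10 genes with the highest ratio to the next cluster, among those at 50 CPM or more, came in part from these lists. Rspo2, Wnt3a and Wnt9a are of the hem list, Ttr and Clic6 of the choroid list and Dnah6 of the multiciliation list. The others, in none of the lists, were the organic anion transporter gene Slco1a4, Fam129a and the noncoding Gm36640 and 3100003L05Rik. Slco1a4 had the highest ratio, with a level of 78.4 CPM ± 29.6 and only 0.959 CPM in the cluster that followed, Cluster 20.

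Marker lists of other cell types were present in part. The list of thalamic cells was at 1707 CPM ± 249 (n = 10), rank 3 of the clusters, after Cluster 20 (2514 CPM) and Cluster 14. The nuclear receptor gene Rora made up 1339 CPM of it, and Tcf7l2, a TCF factor gene, 202 CPM, while Gbx2, a thalamic homeobox gene, had 1 UMI. The list lay between 1581 and 2172 CPM in saline and between 1326 and 1993 CPM in EtOH embryos. General neuronal genes were at 2187 CPM ± 321, rank 22. The meningeal list, all 6 of whose genes had UMIs, was at 41.4 CPM, more than in any other cluster (15.4 CPM in Cluster 3, which came next), and ran from 30.3 to 76.6 CPM in saline and from 18.7 to 45.2 CPM in EtOH embryos. The list of oligodendrocyte precursors was at 20.3 CPM, close to the 20.1 CPM of Cluster 3, and 142 of its 145 UMIs were of Pdgfra, a growth factor receptor gene that the meningeal list also holds. Olig1 and Sox10 of that list had no UMI in any of the 10 embryos, which allows a level of up to 0.487 CPM (3 counts, counting error only). The microglial list was at 40.7 CPM, after the 90.9 CPM of Cluster 11, with C1qa and C1qb at 0 and UMIs of the other 5 genes. The pericyte list was at 25.3 CPM, rank 3 of the clusters, and the endothelial list at 12.1 CPM, rank 6. The part of these cell types in the results was not tested. The interneuron list, all 7 of whose genes had UMIs, summed to between 201 and 735 CPM in saline and between 4.33 and 377 CPM in EtOH embryos, against 214 CPM in Cluster 2. Of 617 thinned nuclei, 501 had no UMI of it. Doublets were not called.

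The promoters of the ciliary genes are shown because the list moved together among the nuclei, as described next, and because the X-box, the site that RFX factors bind, is known from such promoters. The letters GTTGCC, which form one arm of the X-box, were searched on both strands of RefSeq promoter windows (GRCm38.p6, 250 bases before to 50 after the start). They occurred in 12 of the 23 multiciliation genes with a window, 52.2%, and in 3821 of all 27025 genes with a window, 14.1%. For the choroid plexus list it was 4 of 17 genes, for the hem Wnt and R-spondin list 1 of 6 and for the radial glia list 2 of 16. The letters CTTTGA, the core of the site for TCF and LEF factors of Wnt signaling, occurred in 4 of 11 intracellular Wnt genes (Gsk3b, Lef1, Sp5 and Sp8) and in 18.2% of all genes, and the TCF and LEF search found none in the 6 windows of the hem list. A match describes the letters and shows no binding. The windows of Deup1, which encodes a scaffold protein for making many centrioles (chr9:15627797-15628096, minus strand), Lrriq1 (chr10:103236273-103236572, minus strand) and Rfx3 (chr19:28011117-28011416, minus strand) are given 5′ to 3′ with the match in capitals, GGCAAC being the same letters on the other strand.
Deup1: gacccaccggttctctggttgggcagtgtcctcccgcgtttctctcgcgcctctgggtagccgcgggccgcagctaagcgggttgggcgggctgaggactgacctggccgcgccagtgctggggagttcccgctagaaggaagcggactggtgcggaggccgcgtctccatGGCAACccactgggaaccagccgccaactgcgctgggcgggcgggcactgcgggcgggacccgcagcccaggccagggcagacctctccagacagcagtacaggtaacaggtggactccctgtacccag
Lrriq1: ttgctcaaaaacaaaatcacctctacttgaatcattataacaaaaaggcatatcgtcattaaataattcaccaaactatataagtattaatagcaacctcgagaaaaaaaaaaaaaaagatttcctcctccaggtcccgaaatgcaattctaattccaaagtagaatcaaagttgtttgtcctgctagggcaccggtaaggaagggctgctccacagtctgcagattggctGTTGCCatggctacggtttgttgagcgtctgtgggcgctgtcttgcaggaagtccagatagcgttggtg
Rfx3: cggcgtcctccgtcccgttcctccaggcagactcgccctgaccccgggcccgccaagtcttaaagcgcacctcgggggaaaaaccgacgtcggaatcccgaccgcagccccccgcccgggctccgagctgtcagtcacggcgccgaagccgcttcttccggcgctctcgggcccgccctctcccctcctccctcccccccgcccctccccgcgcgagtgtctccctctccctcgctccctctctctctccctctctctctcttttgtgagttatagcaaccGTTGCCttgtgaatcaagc

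Nuclei with more choroid transcripts had fewer hem transcripts, though not none. In 617 nuclei thinned to 2000 UMIs (2 saline and 5 EtOH nuclei had fewer), the choroid plexus list had a median of 7 UMIs but ran from 0 to 174. It had under 5 UMIs in 282 nuclei, 5 to 19 in 105 and 20 or more in 230, and each of these ranges held nuclei of all 10 embryos. The median of the hem Wnt and R-spondin list was 20 UMIs in the first range, 21 in the second and 6 in the third, and that of the multiciliation list was 3, 3 and 11. Across nuclei the hem and choroid counts had a Spearman correlation of -0.43, between -0.69 and -0.02 within single embryos, and the choroid and multiciliation counts one of 0.59, between 0.17 and 0.72 (617 nuclei, which share libraries and a fixed total). In thinned nuclei of Cluster 2 the mean was 0.445 choroid UMIs, against 27.9 in Cluster 21, and the source of those in Cluster 2 was not tested.

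**Figure D2:**
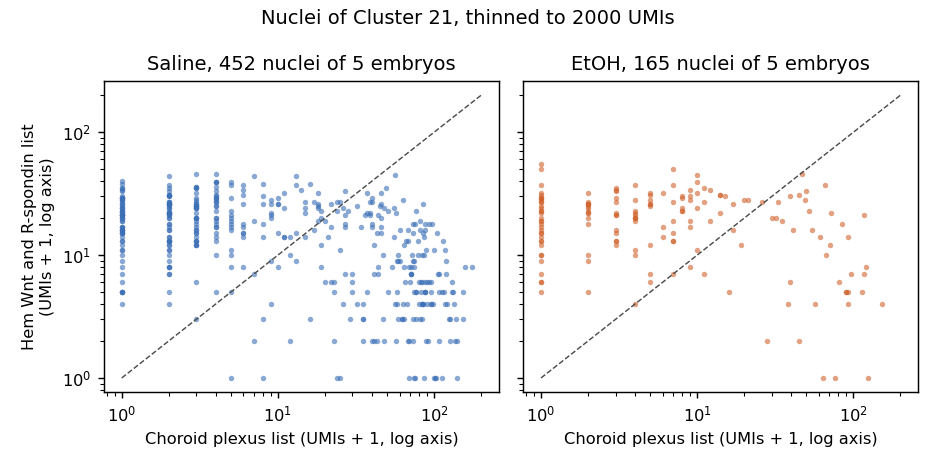
UMIs plus 1 of the hem Wnt and R-spondin list (vertical, log axis) against those of the choroid plexus list (horizontal, log axis), 1 point for each nucleus of Cluster 21 thinned to 2000 UMIs, for saline (left, 452 nuclei) and EtOH (right, 165 nuclei). The dashed line marks equal counts, and 39.7% of all 617 nuclei lie below it, 44.7% in saline and 26.1% in EtOH.

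To follow the other genes along this range, the nuclei of each embryo were ranked by their choroid share and split in 3 equal parts (terciles), a split chosen by the level of the choroid list itself. From the lowest to the highest tercile, the hem list went from 19.98 ± 3.49 to 11.8 ± 4.13 UMIs per 2000 (SD, n = 10) and was lower in the highest tercile in 10 of 10 embryos. The multiciliation list went from 3.83 ± 1.04 to 17.8 ± 6.45 and was higher in 10 of 10. The radial glia list went from 5.75 ± 0.84 to 4.92 ± 0.74 and was lower in 8 of 10, and the proliferation list went from 1.43 ± 0.71 to 1.22 ± 0.76, less than its SD. General neuronal genes went from 4.95 ± 1.11 to 2.79 ± 0.56 and intermediate progenitor genes from 0.54 ± 0.32 to 0.23 ± 0.09, both lower in 10 of 10 embryos, and the thalamic list went from 2.92 ± 0.88 to 4.70 ± 0.52 and was higher in 10 of 10. The part of other cell types in this range was not tested. Cortical factors went from 1.13 ± 0.28 to 0.30 ± 0.24 and were lower in 10 of 10 embryos, whereas midline factors went from 4.13 ± 0.78 to 7.999 ± 1.78 and were higher in 10 of 10.

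The ligands did not all follow one another. Wnt8b was at 562 CPM ± 146 in the lowest and 117 CPM ± 93.8 in the highest tercile, Rspo1 at 589.5 and 114.5 CPM, and Wnt5a at 199 and 24.4 CPM, each lower in 10 of 10 embryos. Rspo2, at 5133 CPM ± 1127 and 3084 CPM ± 1101, was also lower in 10 of 10 embryos. Rspo3, at 2113 CPM ± 638 and 1809 CPM ± 671, was lower in 5 of 10 embryos and higher in the other 5. Among the BMP genes Bmp7 was at 31.3 CPM ± 42.4 in the lowest and 152 CPM ± 128 in the highest tercile, higher in 9 of 10 embryos, while Bmp6 was at 284 CPM ± 163 and 241 CPM ± 101. Lmx1a was near level, at 1051 CPM ± 321 and 1138 CPM ± 324, so that of the 4 markers of the label Lmx1a ran across the whole range, Rspo2 and Wnt8b were higher at the hem end and Gmnc, at 16.7 CPM ± 33.8 and 624.9 CPM ± 547, at the choroid end. Ror1 was also higher at the choroid end in 10 of 10 embryos, at 89.997 CPM ± 53.6 and 954.5 CPM ± 410.0.

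Outside the choroid list, the genes with the highest ratio of the highest to the lowest tercile were mostly ciliary. Cdc20b, a centriole amplification gene, was at 7.08 CPM ± 12.2 in the lowest and 830.5 CPM ± 709 in the highest tercile, Dnah6 at 0.74 and 328 CPM, the flagellar axoneme gene Cfap43 at 0.74 and 265 CPM, and Deup1 at 0 and 229 CPM. The fifth was Frmpd4, a scaffold gene known from synapses, at 26.1 CPM ± 33.2 and 1198 CPM ± 462. The 5 genes with the lowest ratio were the guidance factor gene Ntn1 (349 and 17.4 CPM), the adaptor gene Dok5 (229 and 9.82 CPM), Cnmd (144 and 9.09 CPM), the noncoding 9430041J12Rik (142 and 9.11 CPM) and Arhgef4 (162 and 15.3 CPM). Ntn1 was lower in the highest tercile in 9 of 10 embryos and the other 4 in 10 of 10.

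**Figure D3:**
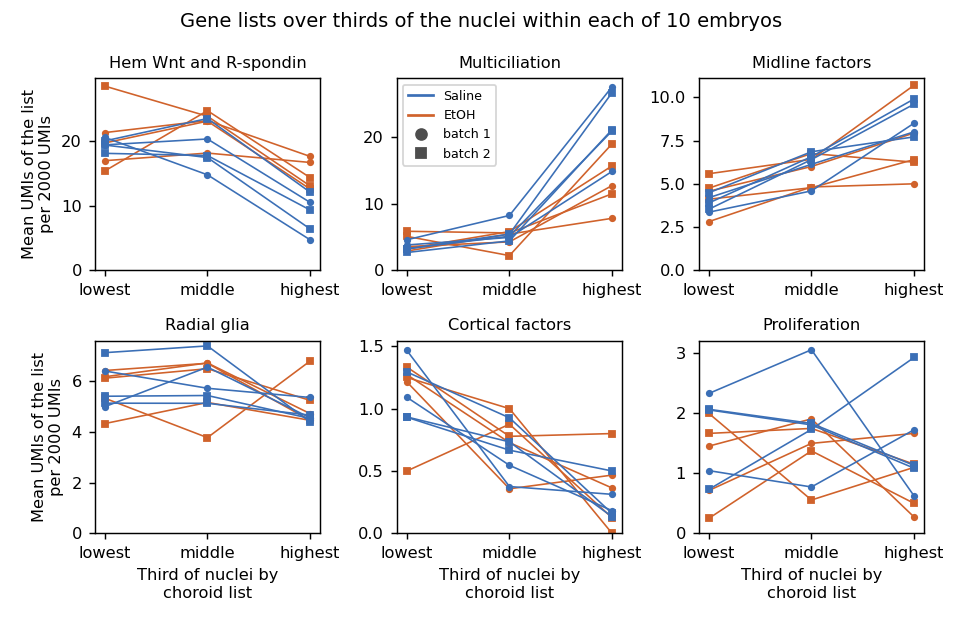
Mean UMIs per 2000 of 6 gene lists over the terciles of the nuclei of each embryo, ranked by choroid share. Each line is 1 of 10 embryos (blue saline, orange EtOH, circles batch 1, squares batch 2). In the highest tercile all 10 lines are lower for the hem list and higher for the multiciliation list than in the lowest. Some hem lines first rise in the middle tercile, and proliferation shows no common slope.

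In EtOH embryos a smaller share of the nuclei lay at the choroid end. Nuclei with more choroid than hem UMIs made up 31.8%, 51.1%, 46.7%, 46.8% and 44.9% of the thinned nuclei of S1-1, S1-2, S2-1, S2-2 and S2-4, and 27.9%, 15.2%, 33.3%, 25% and 29.7% of those of E1-1, E1-2, E2-2, E2-3 and E2-4. The means were 44.3% ± 7.31 (SD, n = 5) and 26.2% ± 6.89 (SD, n = 5). The groups overlapped only in S1-1 and E2-2, and within each batch every saline embryo was above every EtOH embryo. This division of the nuclei was made after their values were seen, so it was not tested, and 59 of 617 nuclei lay within 5 UMIs of equal counts. EtOH embryos rest on 24 to 43 thinned nuclei each. A share of nuclei does not tell whether there were fewer nuclei at the choroid end or more at the hem end.

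Summed over each embryo, the hem Wnt and R-spondin list was at 7645, 6086, 7832, 6230 and 6048 CPM in the saline embryos and at 9257, 7536, 8853, 8808 and 8879 CPM in the EtOH embryos, in the order given above. The 4 highest values were EtOH embryos, and E1-2 lay among the saline values. The choroid list was at 13149, 23305, 12745, 13065 and 12079 CPM in saline and at 7552, 4728, 8949, 14064 and 13479 CPM in EtOH. Here S1-2 stood above all others, and E2-3 and E2-4 reached the saline range.

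**Figure D4:**
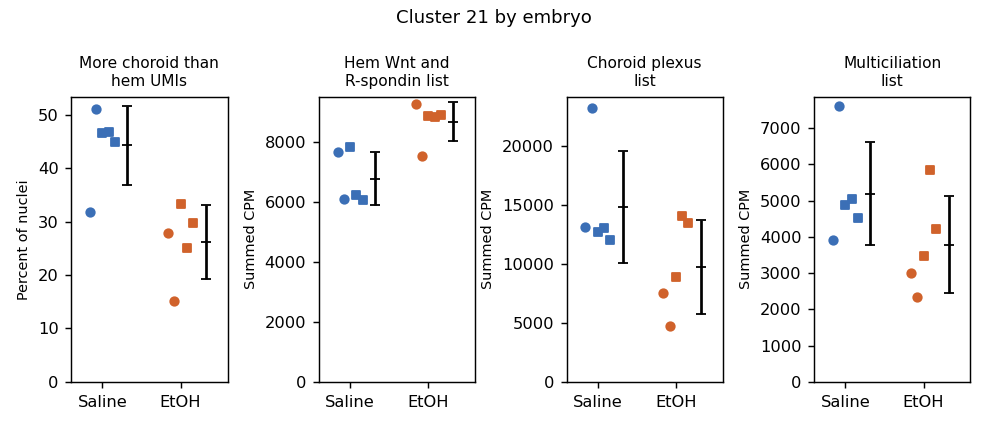
Percentage of nuclei with more choroid than hem UMIs after thinning to 2000 UMIs, and summed CPM of the hem Wnt and R-spondin, choroid plexus and multiciliation lists, for each of 10 embryos (circles batch 1, squares batch 2, bars mean and SD of 5 embryos). The EtOH embryos lie lower for the percentage and higher for the hem list, where S1-1 and E2-2 overlap for the percentage and E1-2 lies within the saline range for the hem list.

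Whether EtOH exposure changed the expression of single genes in the cluster was tested with edgeR on the UMIs summed per embryo, and a call needed an adjusted p below 0.05 together with a level more than 25% higher or 20% lower in EtOH. In bulk sums of this kind, fewer nuclei at one end of the cluster and less RNA per nucleus cannot be told apart. Of 6390 genes tested, 1 was called higher in EtOH (0.0156%) and 0 lower (0%). At an unadjusted p under 0.05 there were 435 genes higher (6.81%) and 357 lower (5.59%), and in 99 genes all EtOH embryos lay above all saline embryos (1.55%) and in 101 below (1.58%). DESeq2 called 70 higher and 57 lower, and edgeR with batch as a term called 9 and 9. The number also hung on single embryos, with 107 higher and 43 lower without S2-4, 12 and 3 without S1-1, 6 and 15 without E1-2, 1 and 2 without E1-1 or without S2-2, and 1 and 1 without E2-3.

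The gene called was Gm45904, an antisense noncoding gene on chromosome 8 (112880460 to 113004997, minus strand, GENCODE M21). It was at 18.4, 22.7, 13.7, 25.7 and 42.4 CPM in the saline and at 112, 121, 102, 112 and 68.6 CPM in the EtOH embryos. Every EtOH embryo was above every saline embryo. The log2 fold change was 2.03 ± 0.26 (SE, edgeR adjusted p = 0.00432), and the gene was called higher in 19 of 22 other settings. These settings reuse the same embryos, and the minimum of 20 nuclei per embryo repeats the main fit. Gm45904 did not pass the filter on low counts in thinned nuclei. It was not called in either fit to 8 of the 10 embryos, without S2-1 and E2-3, that was added after the values were seen (edgeR adjusted p = 0.0767 and 0.0613). Its end overlaps the end of Cntnap4, a gene for a neurexin-like adhesion protein on the opposite strand, by 2258 bases. The paper names 10x 3′ chemistry and Cell Ranger at default settings, and the strand of reads from this overlap was not examined here.

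Cntnap4 itself was at 855, 722, 608, 602 and 678 CPM in saline and at 1037, 1366, 1022, 1008 and 1075 CPM in EtOH embryos. The groups did not overlap, and with a log2 fold change of 0.67 ± 0.14 the gene was not called (edgeR adjusted p = 0.0632). Cntnap4 was at 1587 CPM ± 317 in the lowest tercile by choroid share and 209 CPM ± 192 in the highest, and was lower in the highest in 10 of 10 embryos. Gm45904 was at 116 CPM ± 151 and 19.8 CPM ± 32.3, lower in 8 of 10 embryos and higher in 0 of 10, a difference smaller than the SD of the lowest tercile. Taking only the nuclei with fewer choroid than hem UMIs, an alternative added after the values were seen, the log2 fold change of Gm45904 was 1.72 ± 0.28 (edgeR adjusted p = 0.0166) and that of Cntnap4 0.29 ± 0.14 (adjusted p = 0.498). In those nuclei Gm45904 and Cntn5, a neural adhesion gene, were the 2 genes called higher, and none was called lower among 4756 tested.

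The genes next in order were not called, with edgeR adjusted p from 0.0526 to 0.0632. On the higher side they were Runx2, a transcription factor of bone formation (log2 fold change 1.00), Cspg5, a proteoglycan gene of neural cells (1.30), the antisense Gm48003 (1.70) and Ccdc190 (1.43), each higher in all EtOH than in all saline embryos. On the lower side they were the synaptic scaffold gene Ppfia2 (-0.98), the imprinted noncoding Meg3 (-1.40), Ccser1 (-1.03) and Trhde (-2.10). Meg3 was at 469, 524, 629, 509 and 505 CPM in saline and at 79.4, 249, 231, 138 and 278 CPM in EtOH embryos, with no overlap. These 4 lower genes had their highest level in another cluster, and Cluster 21 ranked between 13 and 23 of 25 for them.

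**Figure D5:**
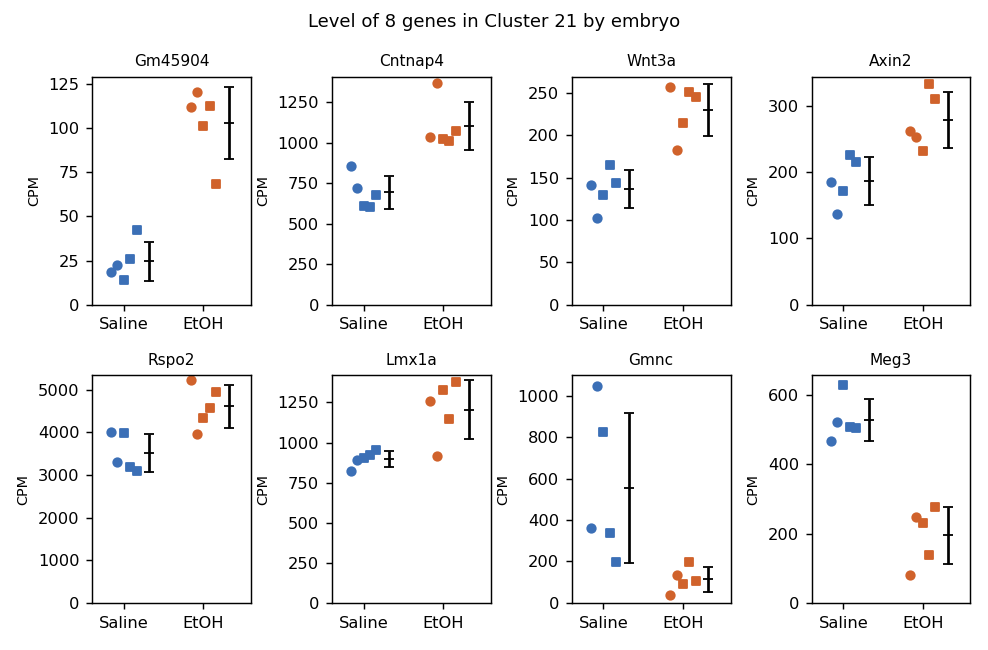
Level (CPM) of 8 genes in the nuclei of Cluster 21 summed per embryo, with 5 saline and 5 EtOH embryos (circles batch 1, squares batch 2, bars mean and SD). Gm45904, Cntnap4, Wnt3a and Axin2 are higher and Meg3 is lower in every EtOH than in every saline embryo, and only Gm45904 passed the edgeR test on all 10 embryos. Rspo2 and Lmx1a overlap between groups, and the saline values of Gmnc spread from 199 to 1047 CPM.

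With edgeR on all 10 embryos no hem ligand was called. Over all 6390 genes, 3265 had a higher estimate, and 435 (6.81%) were higher at an unadjusted p under 0.05. All 10 genes of the hem Wnt and R-spondin list had a higher estimate in EtOH, 6 of them at an unadjusted p under 0.05. The median log2 fold change of the list was 0.40, against 0.01 over all genes. In thinned nuclei 6 were higher and 1 lower of 7 tested. Wnt3a was at 141, 103, 129, 165 and 144 CPM in saline and at 257, 183, 215, 250.9 and 245 CPM in EtOH embryos. The EtOH values lay above all saline values, with a log2 fold change of 0.75 ± 0.14 (edgeR adjusted p = 0.0526), and Wnt3a was called in 6 other settings, among them DESeq2 and batch as a term. Rspo2 had a log2 fold change of 0.39 ± 0.14 (adjusted p = 0.224), Wnt8b of 0.28 ± 0.15 (adjusted p = 0.453) and Rspo3 of 0.21 ± 0.16 (adjusted p = 0.626). Wnt7b, the member with the largest estimate and named after its value was seen, was at 40.7 CPM ± 13.1 in saline and 91.0 CPM ± 29.0 in EtOH (1.12 ± 0.27, edgeR adjusted p = 0.0755), and was called in 3 other settings. In the nuclei with fewer choroid than hem UMIs, a choice of nuclei that uses the level of this list, its median was 0.20, with 9 genes higher and 1 lower, and Wnt3a stood at 0.39 ± 0.17 (adjusted p = 0.432).

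The 11 intracellular Wnt genes tested were both pathway components and feedback targets. Of these, 7 had a higher and 4 a lower estimate (3265 and 3125 of all 6390 genes), and the median was 0.10. None was called by edgeR on all nuclei of the 10 embryos. The median was 0.00497 without E2-4, 0.04 without E2-2 or S1-1, 0.05 without S1-2 and 0.00963 with counts summed per dam. The 4 at an unadjusted p under 0.05 were all higher in EtOH, where 6.81% of all genes were higher at this threshold. Among these 4, Axin2, Apcdd1 and Nkd1 are known to be induced by Wnt signaling. Axin2, named after its value was seen, was at 185, 136, 171, 226 and 215 CPM in saline and at 262, 253, 231, 333 and 310 CPM in EtOH embryos. The groups did not overlap (log2 fold change 0.58 ± 0.15, edgeR adjusted p = 0.0838), and DESeq2 and edgeR without S2-4 called the gene. Apcdd1, a Wnt inhibitor, had 0.64 (adjusted p = 0.151), Nkd1, a feedback inhibitor, 0.50 (adjusted p = 0.271) and Tle1 0.38 (adjusted p = 0.187). In thinned nuclei edgeR called Apcdd1 higher (0.99, adjusted p = 0.0281). In the nuclei with fewer choroid than hem UMIs the log2 fold changes were 0.39 for Axin2, 0.34 for Apcdd1, 0.18 for Nkd1 and 0.23 for Tle1, with edgeR adjusted p from 0.363 to 0.860. Gsk3b, the kinase of the destruction complex, was at 482 CPM ± 35.3 in saline and 409 CPM ± 22.6 in EtOH (-0.23 ± 0.11, adjusted p = 0.407). Of 9 Wnt receptors and modulators tested, 5 were higher and 4 lower, with none at an unadjusted p under 0.05.

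Among secreted Wnt antagonists, Dkk3 was at 145 CPM ± 30.3 in saline and 228 CPM ± 43.7 in EtOH (0.64 ± 0.16, edgeR adjusted p = 0.0838, called by DESeq2) and Draxin, which also guides axons, at 91.6 CPM ± 17.3 and 141 CPM ± 59.4 (0.64, adjusted p = 0.285). Dkk2, named after its values were seen, was at 16.9, 19.7, 35.3, 17.9 and 6.42 CPM in saline embryos and had no UMI in any EtOH embryo. Summed over embryos, it had 89 UMIs among 4954221 in saline and 0 among 1201567 in EtOH. For these sums it was at least 7.2-fold lower in EtOH, taking 3 counts over the EtOH group as the floor. This bound covers counting error only and not the spread between embryos. Saline embryo S2-2 gave 2296478 of the saline UMIs, and 0 counts in a single EtOH embryo allow a level above this floor. The gene did not pass the filter on low counts.

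Nearly all ciliary genes tested and a smaller majority of choroid genes had lower estimates in EtOH, and edgeR on all 10 embryos called none. In other settings Gmnc was called in 3, Trp73 in 4, the axonemal gene Spag17 in 2 and Trpm3 in 1, with DESeq2 calling Gmnc, Trp73 and Spag17. Over all 6390 genes tested, 3125 had a lower and 3265 a higher estimate. Of 16 choroid genes tested, 10 had a lower and 6 a higher estimate, with a median of -0.25, and of 20 multiciliation genes 19 were lower, with a median of -0.47. Both medians hung on single embryos. That of the choroid list was -0.03 without E1-2 (8 genes higher and 9 lower), -0.06 without S1-2, -0.08 without E1-1 and -0.51 without E2-4, and that of the multiciliation list -0.15 without S1-2, -0.23 without E1-2 and -0.87 without E2-3. Gmnc was at 361, 1047, 823, 337 and 199 CPM in saline and at 37.4, 135, 90.3, 199 and 105 CPM in EtOH embryos. The highest EtOH value, E2-3, lay just under the lowest saline value, S2-4, and S1-2 and S2-1 carried much of the saline mean (log2 fold change -2.26 ± 0.57, edgeR adjusted p = 0.130). Trp73, a factor of multiciliated cells and of Cajal-Retzius neurons, was at 55.2 CPM ± 10.9 and 15.5 CPM ± 14.4 (-1.84 ± 0.39, adjusted p = 0.0632). Htr2c had -1.36 ± 0.59 (adjusted p = 0.388), Ttr -0.51 ± 0.42 (adjusted p = 0.683), and Rfx3 -0.01 (adjusted p = 0.999). In the nuclei with fewer choroid than hem UMIs, 9 multiciliation genes could be tested and their median was 0.07, while Gmnc stood at -3.04 ± 0.88 (edgeR adjusted p = 0.302).

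Other lists gave the following counts, with no gene called by edgeR on all nuclei of the 10 embryos with the filter on low counts. For comparison, 3265 of all 6390 genes tested had a higher and 3125 a lower estimate. Of the genes named here DESeq2 called Fabp7 and Lmx1a, and edgeR called Fabp7 without S2-4, Kif11 without the filter on low counts, and Zic4 in both of these settings. Calls of neuronal genes are given with their list. Of 15 radial glia genes 13 were higher, with a median of 0.24, but in thinned nuclei 2 were higher and 3 lower of 5 tested, with a median of -0.06. In all nuclei the median was 0.10 without E2-2, 0.14 without S2-2 and 0.38 without E2-3. Fabp7, a fatty acid binding protein of radial glia named after its value was seen, was at 34.6 CPM ± 8.19 and 68.3 CPM ± 21.5 (0.99 ± 0.25, edgeR adjusted p = 0.0838). Of 7 proliferation genes all 7 had a lower estimate, with a median of -0.38, among them Mki67 (-0.32, adjusted p = 0.720) and Kif11, a spindle motor gene (-0.89, adjusted p = 0.144). Without E2-2 the median was -0.22, with 2 of 8 genes higher, and it was -0.25 without S2-1 and -0.58 without E2-4. Of 8 apoptosis genes 6 were higher and 2 lower, with a median of 0.15, and 3 genes of alcohol metabolism and oxidative stress could be tested, with a median of 0.00. Of 12 BMP receptor and mediator genes 4 were higher and 8 lower, and of 5 BMP ligands and targets 3 were higher, with medians of -0.07 and 0.06. The 11 midline factors had a median of -0.17 (-0.08 without E1-2), with Lmx1a higher (0.43 ± 0.13, adjusted p = 0.141) and Zic4 lower (-0.58, adjusted p = 0.144). Of 7 general neuronal genes 6 had a lower estimate, with a median of -0.40, but in thinned nuclei 2 were higher and 2 lower of 4 tested, with a median of -0.05. In all nuclei the median was -0.24 without E2-3 and -0.60 without E1-2. Syt1 of this list was called lower by edgeR in thinned nuclei (-1.17, adjusted p = 0.0181). Without the filter on low counts edgeR called Syt1 (-1.07) and Snap25 (-0.95) lower. The Cajal-Retzius list summed to between 352 and 654 CPM in saline and between 229 and 359 CPM in EtOH. The part of neuronal RNA in the genes lower in EtOH was not tested.

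The EtOH effect in Cluster 21 was set against that in Cluster 2, the main radial glia cluster, in the same 10 embryos, with the embryo as a term. Of 11663 genes, 2 differed (0.0171%), both with a more positive effect in Cluster 21. Cntnap4 had a log2 fold change of 0.67 in Cluster 21 and -0.34 in Cluster 2, and their difference was 0.97 ± 0.15 (edgeR adjusted p = 0.00674). Lrp1b, a giant lipoprotein receptor gene, was at 9308, 7876, 7516, 6475 and 7990 CPM in saline and at 13610, 12487, 13037, 9708 and 12434 CPM in EtOH embryos of Cluster 21, all EtOH above all saline. Its log2 fold changes were 0.65 and -0.25 in Clusters 21 and 2, a difference of 0.86 ± 0.14 (edgeR adjusted p = 0.00674). In the nuclei with fewer choroid than hem UMIs its log2 fold change in Cluster 21 was 0.34 ± 0.14 (edgeR adjusted p = 0.415). Lrp1b was also lower at the choroid end, at 12256 CPM ± 1268 in the lowest and 6818 CPM ± 4174 in the highest tercile. For Gm45904 the difference was 1.51 ± 0.30 (adjusted p = 0.0738) and was not called. The count was 9 without E1-2, 5 without S2-2 or S2-4, and 4 without E2-3.

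Against Cluster 20, Tcf7l2-rich radial glia, which could be compared in 8 embryos (5 saline and 3 EtOH, without E1-2 and E2-3), 10 of 8779 genes differed (0.114%). In 4 genes the effect was more positive in Cluster 21, namely Fat4, a giant cadherin gene, the factor genes Eya4 and Sall3, and Arpp21. In 5 it was more negative, namely Meg3, Nol4, Stk33, Bahcc1 and the interneuron gene Dlx6os1. The other gene, Trp73, did not pass the filter on low counts in Cluster 20 alone, so that its difference rests on its level in Cluster 21 and is not read as one between effects. For Meg3 the log2 fold changes were -1.40 in Cluster 21 over all 10 embryos and 0.10 in Cluster 20 over the 8 embryos. The difference, fitted in the 8 embryos, was -1.56 ± 0.26 (edgeR adjusted p = 0.0440). For Eya4 the changes in the same sets were 0.61 and -0.83, and the fitted difference was 1.55 ± 0.29 (edgeR adjusted p = 0.0461). Most of the 10 rested on the whole set of embryos, as the count was 0 without any one of E1-1, E2-2, S1-2, S2-1, S2-2 or S2-4, 1 without S1-1, 6 without E2-4 and 1 with batch by cluster as a further term.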

How the data were processed

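Nuclei of mouse embryonic cortex were profiled per embryo with 10x 3′ version 3.1 chemistry. Reads were processed by the authors with Cell Ranger against mm10, nuclei and genes were filtered, nuclei were clustered after correction for batch and dam, and the authors deposited raw UMI counts of 23513 genes in 1 table per embryo and cluster. Total counts per embryo were 14078316 to 83061737, and those of Cluster 21 in the 10 embryos used 177117 to 2296478, so levels of low genes in the shallower embryos rest on few UMIs and SDs include counting error. Clusters are the authors' own. The members and the gene lists were chosen with earlier results of these data known.

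Doublets were neither called nor removed here. Counts were summed per embryo (at least 10 nuclei) and tested with edgeR 4.0.16 in R 4.3.3 (filterByExpr, TMM, robust quasi-likelihood fit) with Benjamini-Hochberg adjustment over all genes tested. Differences between clusters were tested with an interaction term and the embryo as a further term. DESeq2 1.42.0 was an alternative. The fits were tested on simulated data. Single values were compared with exact permutation tests (Python 3.11.15, NumPy 2.4.6, SciPy 1.17.1, pandas 2.3.3), and figures were drawn with matplotlib 3.10.9. Nuclei were thinned to 2000 UMIs. For ranking genes by tercile, 5 CPM were added to each level. Gene positions are from GENCODE M21 (GRCm38, the same coordinates as mm10), in which 23125 of the genes matched by symbol. Of 340 genes looked up, 142 overlap a gene on the other strand.

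Genes were named by rule: the markers of the label, called genes and up to 4 genes of highest level per list, the 5 of smallest p per direction where fewer than 3 were called, the 10 of highest ratio to the next cluster, genes called between clusters, and the 5 highest and 5 lowest by tercile outside the choroid list. Genes outside these rules (among them Wnt7b, Axin2, Apcdd1, Nkd1, Dkk2, Fabp7, Lgr5, Gdf7, Lhx2, Aqp1, Kl, Kif11, Spag17, Cntn5 and markers of other cells) were chosen after their values were seen. Some genes that these rules select are not reported here. Reads were not analysed here, and saline embryo S2-3 was not used here. Alternatives covered normalization, filters, tool, batch, dam, depth, a block by sample number and each embryo left out.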

Additional observations from a re-analysis of the deposited data

Results flagged for a closer look

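Among 58 groups of 5 or 6 embryos checked for a value far from the others, 8 held one, where chance flags about 1 in 20. The groups share the same embryos, and some are of genes chosen for a small p, so this rate gives no test of the 8. The percentage of nuclei in Cluster 21 was 4.64% in saline embryo S2-2. E1-2 stood apart from the other EtOH embryos with 1366 CPM of Cntnap4, 106 CPM of Runx2 and 7536 CPM of the hem Wnt and R-spondin list. E2-2 stood apart with 113 CPM of Cspg5 and 107 CPM of Ccdc190. Among saline embryos S1-2 stood apart with 2528 CPM of Ccser1 and 23305 CPM of the choroid plexus list.

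The EtOH effect passed the test of a difference between clusters for 12 genes, given as the log2 ratio of the effect in Cluster 21 to that in the other cluster. Against Cluster 2 it was 0.97 for Cntnap4 and 0.86 for Lrp1b. Against Cluster 20 it was 2.24 for Arpp21, 2.29 for Sall3, 1.55 for Eya4, 1.47 for Fat4, -1.56 for Meg3, -1.44 for Nol4, -1.87 for Stk33, -2.52 for Bahcc1, -3.24 for Dlx6os1 and -5.58 for Trp73. Trp73 did not pass the filter on counts in Cluster 20 alone, so its value depends on the prior count of the fit and is no bound.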

How the results depend on the processing

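The percentage difference (EtOH minus saline) turned to 0.176 percentage points with group medians, was -0.723 with labels exchanged within batches, and ran from -0.958 to 0.0158 without single embryos. The difference in UMIs per nucleus was -2482 but no longer under 0.05 when exchanged within batches, and ran from -2980 to -1895 without single embryos.

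Genes called higher and lower were 70 and 57 with DESeq2, 93 and 237 without a filter on low counts (20210 genes tested), 9 and 9 with batch as a term, 6 and 7 with counts summed per dam, and 13 and 23 in thinned nuclei (1945 genes). In nuclei with fewer choroid than hem UMIs, chosen after seeing the data, they were 2 and 0 with edgeR and 13 and 3 with DESeq2. Without single embryos 1 to 107 genes were called higher and 0 to 43 lower. The cause of these differences was not tested. The minimum of 20 nuclei left the same embryos. No gene for which the settings were compared one by one changed direction in any of them. Meg3 and Ppfia2 were called in 8 settings, Runx2 in 7 and Wnt3a in 6.

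Genes with a different effect ran from 2 to 9 against Cluster 2 and from 0 to 6 against Cluster 20 without single embryos, and were 1 against Cluster 20 with batch by cluster. The hem list ratio between terciles (log2, -0.76) ran from -0.86 to -0.67 and the multiciliation ratio (2.22) from 2.11 to 2.36 without single embryos, and neither moved by more than the SD between embryos under other depths or without Ttr. Without single embryos the median log2 fold change ran from 0.37 to 0.47 for the hem list, from -0.51 to -0.03 for the choroid list and from -0.87 to -0.15 for the multiciliation list.

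Sample numbers recur within a batch across treatments, and 4 saline and 4 EtOH embryos used here share one. Their dams differ and nothing states that a number marks anything shared. Deviations from the group means had correlations of -0.0929 to -0.00862 within the 4 pairs (6390 genes), and no EtOH embryo correlated best with its own number. With only 4 pairs this check cannot decide whether the numbers pair the embryos. With batch and sample number as a replicate block, a fit added after seeing the data, 0 genes were called higher and 0 lower of 7072 (330 and 379 at an unadjusted p under 0.05), and with the same 8 embryos unblocked also 0 and 0 (380 and 389). Gm45904 had log2 fold changes of 1.87 in both, with edgeR adjusted p = 0.0767 and 0.0613.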
